A study of Sus scrofa with 4 samples.

Results

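The expression table of this study on porcine 4-cell embryos held 2308 rows named after a family of Rfam, the database of structured RNA families, out of 35248 rows in all. They were taken by the name column of the table, which gives an Rfam number (RF and 5 digits), and they fell into 401 families. Rfam families are built from an alignment of known members, so a row marks a stretch of genome that resembles the family and need not be an active copy. The families include the RNAs of the splicing machinery (U1, U2, U4, U5 and U6), 7SK RNA, which holds the elongation factor P-TEFb inactive, and the small nucleolar RNAs. C/D small nucleolar RNAs guide 2′-O-methylation and H/ACA small nucleolar RNAs guide pseudouridylation of ribosomal and spliceosomal RNA, and in vertebrates most are cut from introns of other transcripts. Later Rfam entries also include conserved stretches of long noncoding RNAs.

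The embryos were parthenogenetic: pig oocytes were started by an electric pulse without sperm, held in cytochalasin B, and cultured in PZM-3 medium for 48 h, so that all chromosomes are of maternal origin. In 2 libraries the embryos were treated with 50 µM Bobcat339, a cytosine-based compound used to inhibit the TET dioxygenases, which oxidise 5-methylcytosine in DNA. The 2 control libraries came from embryos given DMSO, for which the labels state the same concentration in µM. RNA was extracted with TRIzol and made into Smart-seq2 libraries, a method that starts cDNA at poly(A) tails, which the mature forms of most of these small RNAs do not carry. A count in such a row does not show whether the read came from the mature small RNA or from a longer polyadenylated transcript that covers it.

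The libraries held 14681221 and 13568525 counts with Bobcat339 and 14390560 and 13852262 counts in the controls, and 3 counts, the upper limit that a count of 0 allows, corresponded to 0.204 to 0.221 CPM (counts scaled to library size, here by the raw total). As reads carried no molecular identifiers, these limits and the intervals on shares cover counting error alone. Nothing in the labels tells whether the libraries of a group came from separate cultures, so p-values measure the spread between these libraries, which may be technical. Summed markers of oocyte and early embryo (7 genes) reached 11151 to 12914 CPM, those of cumulus and granulosa cells 67.6 to 88.2 CPM over 7 genes with AMH at 0 counts in all libraries, and those of blood 5.43 to 9.52 CPM. Most of the cumulus and granulosa sum was VCAN (57.6 to 81.8 CPM). STAR had 4.50 to 9.00 CPM, and CYP19A1, FSHR, FOXL2 and INHBA each had at most 1.14 CPM in any library. Over the whole table edgeR's quasi-likelihood test with Benjamini-Hochberg adjustment called 0 of 18481 tested rows at an adjusted p of 0.05, with 740 rows under an unadjusted p of 0.05, and DESeq2 called 5 of 30007. Without control library 1 the edgeR test called 586 rows and without control library 2 it called 494.

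Most Rfam-named rows had no reads. In all, 1516 rows (65.7%) stood at 0 counts in the 4 libraries and 792 (34.3%) had at least 1 count. Of the rows with an Ensembl identifier and no Rfam name, 84.5% had a count. Rfam-named rows thus made up 6.55% of the rows of the table but 28.9% of its 5241 rows without counts. Of the 792 rows with a count, 417 had only 1 to 3 counts over the 4 libraries together, 178 were counted in every library and 24 had at least 10 counts in every library. Their lengths ran from 32 to 472 bases with a median of 107.

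Counts were concentrated in few rows. All Rfam-named rows together held 12338 counts, of which a single row held 23.6%, the leading pair 34.2% and the leading 10 rows 47.1%. A family with many rows did not always have many counts. U6, the RNA at the catalytic core of the spliceosome, had 913 rows and 968 counts, whereas RF02216 had 2 rows, 1 of them counted, and 2917 counts. Among the 248 families with 1 row, 58.9% of the rows had a count, and among families with more than 20 rows 26.1% did. In total 124 families had no count in any library.

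**Figure D1:**
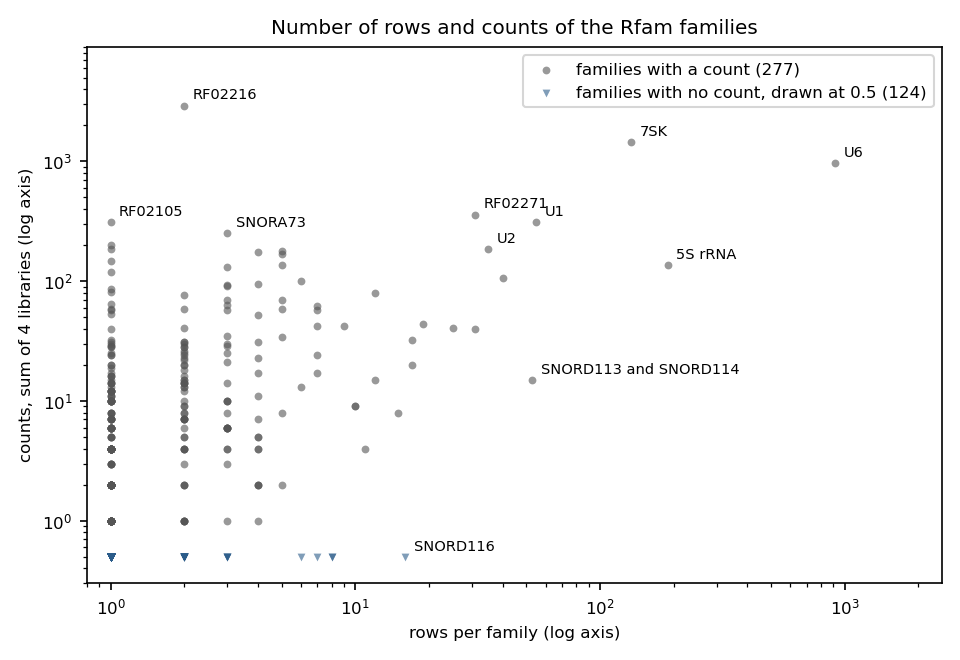
Each point is an Rfam family, placed by its number of rows (x, log axis) and its counts summed over the 4 libraries (y, log axis), with the 124 families without a count drawn at 0.5. U6, with 913 rows, lies below RF02216, which has 2 rows, and SNORD116 has 16 rows and no count.

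The rows held about the same part of each library. They took 3111 counts or 0.0212% (95% Wilson interval 0.0205 to 0.0219%) of the first Bobcat339 library and 3125 counts or 0.0230% (0.0222 to 0.0239%) of the second. In the controls they took 3362 counts or 0.0234% (0.0226 to 0.0242%) and 2740 counts or 0.0198% (0.0191 to 0.0205%). The groups overlapped, with 0.0221% ± 0.0013 (SD, n = 2) against 0.0216% ± 0.00253 (SD, n = 2). The exact two-sided permutation test gave p = 1.0, where 2 libraries against 2 cannot go below 0.333333. A difference in the number of embryos or cells and a difference in RNA per cell cannot be told apart in such libraries.

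Fewer Rfam-named rows had a count with Bobcat339 than in the controls: 408 and 427 against 440 and 467. The groups did not overlap, at the smallest p the design allows (exact two-sided permutation p = 0.333333). The U6 rows followed the same order, with 89 and 93 rows counted against 106 and 118. Among rows with an Ensembl identifier and no Rfam name the numbers were 17434 and 17712 against 17774 and 17963, the same order, and among rows with an XLOC identifier they were 8691 and 8742 against 8829 and 8585, which overlapped.

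The row with most counts was RF02216 (ENSSSCG00000038051), 93 bases at chr17:50959327-50959419 on the plus strand of Sscrofa11.1, beside ZNFX1 and inside RefSeq long noncoding RNAs. It had 693 and 808 counts with Bobcat339 and 918 and 498 in the controls. The controls enclosed both treated libraries, and the control spread of 50.6 ± 21.2 CPM (SD, n = 2) was wider than its distance from the treated mean of 52.9 ± 8.22 CPM (SD, n = 2). The log2 fold change, Bobcat339 minus control throughout, was 0.06 (SE 0.33) and the adjusted p 0.999 by edgeR's quasi-likelihood test. Per length and depth the row ranked 57th of all rows by mean FPKM (fragments scaled to row length and depth), with 508, 640.3, 686 and 387 FPKM in the 4 libraries in the order above, while by counts it ranked 3864th.

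RF02216 belongs to a group of 5 rows within 3256 bases, chr17:50958678-50961933, where the human genome has ZFAS1, a noncoding host gene of small nucleolar RNAs. The other rows are RF02215 and 3 C/D RNAs of family RF00581 described in the table as box 12, 12B and 12C. RF00581 box 12B had 23 and 46 counts against 28 and 19, box 12 had 7 and 10 against 21 and 5, and box 12C had 1 and 4 against 6 and 6. RF02215, which starts 649 bases upstream of RF02216, had 12 counts in all. RF02216 therefore stood apart from its neighbours in counts, and the summed group (728 and 870 against 978 and 529 counts) overlapped between treatments.

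**Figure D2:**
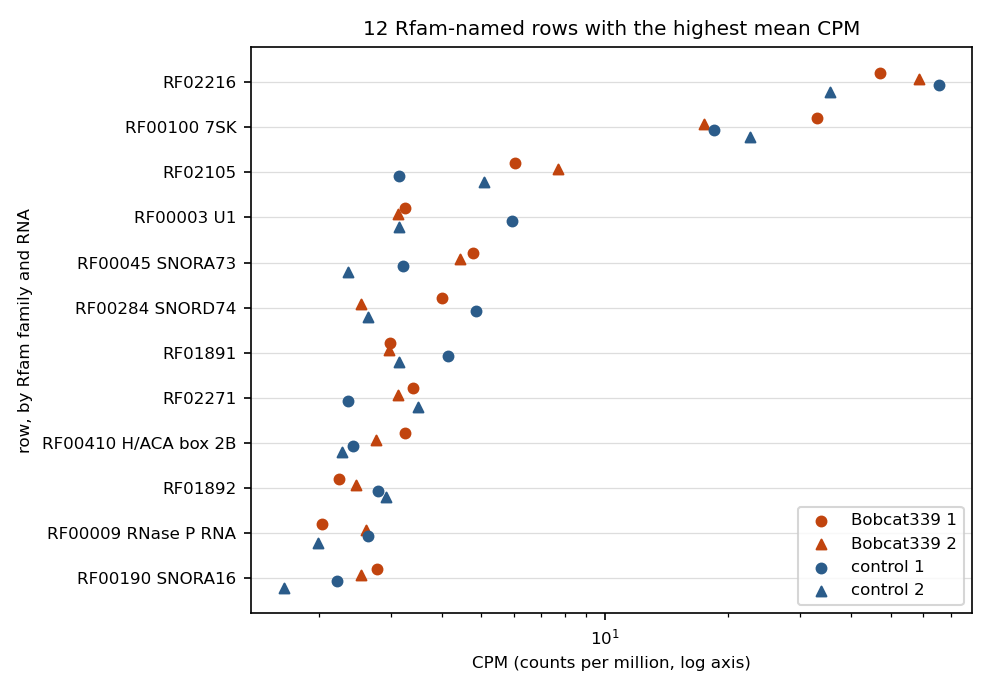
CPM (x, log axis) in each of the 4 libraries for the 12 Rfam-named rows with the highest mean, orange for Bobcat339 and blue for control. RF02216 (35.6 to 65.6 CPM) and 7SK (17.4 to 33.0 CPM) lie above the others. The groups do not overlap for RF02105, SNORA73, RF01891, RF00410, RF01892 and SNORA16, none of which was called. By the same rule the groups were apart in 29.3% of all tested rows of the table.

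7SK RNA came second. Its family RF00100 had 134 rows, 41 of them counted, and 1 row held 90.0% of the 1446 counts. That row, ENSSSCG00000019556, is 331 bases at chr7:46656764-46657094 between GSTA4 and ICK and overlaps no other row. It had 486 and 240 counts with Bobcat339 and 259 and 317 in the controls. The first treated library was the highest and the second the lowest, so the groups overlapped (log2 fold change 0.29, SE 0.36, edgeR adjusted p 0.999). Without the first treated library the fitted value was -0.24. The remaining 40 counted rows of the family each had at most 16 counts.

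The 5 major spliceosomal RNAs had 1034 rows and 1587 counts. U6 counts were spread thinly: 684 of its 913 rows had none, 129 were counted in 1 library and 28 in all 4, and the leading row held 8.78% of the family. Summed U6 counts were 202 and 249 with Bobcat339 and 275 and 242 in the controls (log2 fold change -0.22, SE 0.33), and the groups overlapped. U1, which pairs with the 5′ splice site, had 61 and 68 counts against 122 and 60. Control 1 alone was high. The leading U1 row, ENSSSCG00000019576 at chr2:88991966-88992149, overlaps the RefSeq protein-coding gene SERINC5. This row held 70.1% of the family, with 48 and 43 against 83 and 44 counts. Its log2 fold change was -0.51 (SE 0.45), and 0.02 without control 1.

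U2, which pairs with the branch point, had 32 and 44 counts against 49 and 60, both treated libraries below both controls (log2 fold change -0.54, SE 0.46, edgeR adjusted p 0.9995). Its row inside MEGF11, ENSSSCG00000018330, had 3 and 8 against 11 and 15 counts, and its leading row at chr12:19713407-19713597 had 14 and 20 against 21 and 19, which overlapped. U4 (18 and 8 against 7 and 11 counts) and U5 (10 and 29 against 20 and 20) overlapped as well. The 4 RNAs of the minor spliceosome, which removes a rare class of introns, had 79 counts in all, 30 of them in 1 row of U12.

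**Figure D3:**
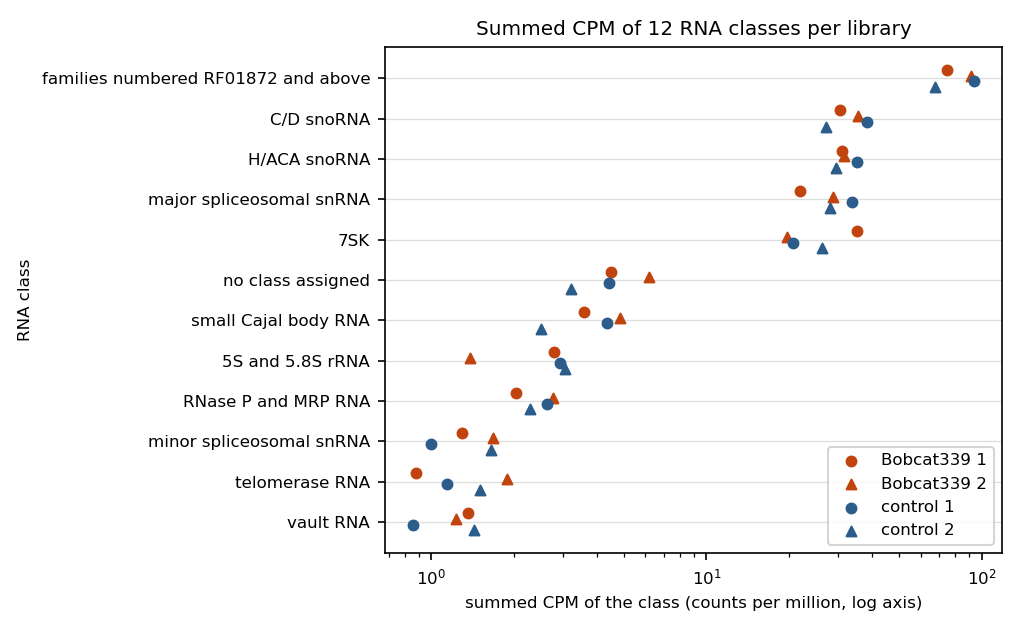
Summed CPM (x, log axis) of the 12 RNA classes that passed the filter on low counts, in each of the 4 libraries. The groups are apart for the ribosomal class (lower with Bobcat339) and for families without an assigned class (higher), and they overlap for the other 10. They are thus apart in 16.7% of the classes, beside 29.3% of all tested rows of the table. In the ribosomal class the first treated library and control 1 each had 41 counts and differ by scaling alone. The class of families numbered RF01872 and above was formed by number.

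Ribosomal 5S RNA, a part of the large ribosomal subunit, had 190 rows, of which 36 were counted. The family had 39 and 18 counts with Bobcat339 and 39 and 40 in the controls. The second treated library was low and the first equalled control 1 in counts, and in CPM both lay below both controls. Its log2 fold change was -0.51 (SE 0.52). RNase P RNA, the catalytic RNA that trims the 5′ end of transfer RNA precursors, was nearly all in the row ENSSSCG00000020439 at chr7:78551527-78551853 between PARP2 and TTC5, which had 30 and 36 counts against 37 and 28. Its log2 fold change of 0.00 (SE 0.50) came with a 95% interval of -1.06 to 1.06, so changes within that range were not excluded.

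Vault, signal recognition particle, Y, U7 and telomerase RNA had at most 76 counts each. Vault RNA, a part of the vault particle, had 20 and 17 counts against 12 and 20. Its leading row, with 67 of these 69 counts, overlaps the RefSeq protein-coding gene IL1RAPL1. The RNA of the signal recognition particle, which brings ribosomes to the endoplasmic reticulum, had 10 and 3 against 7 and 12 over 17 rows. Y RNA, which binds the Ro60 protein, had 2 and 0 against 5 and 2 over 10 rows, and U7, which guides the 3′ end of replication histone mRNA, had 2 and 0 against 3 and 2. Telomerase RNA, the template of the enzyme that extends chromosome ends, had 13 and 26 against 16 and 21 counts. The 8 rows of U3, the C/D RNA needed to process the precursor of 18S ribosomal RNA, and the single row of RNase MRP RNA had no count in any library.

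H/ACA small nucleolar RNAs had 65 families, 299 rows and 1801 counts, with 458 and 435 counts against 493 and 415 in the controls (log2 fold change -0.05, SE 0.31). The leading row was SNORA73 (ENSSSCG00000037630) at chr6:85534254-85534457 between PHACTR4 and RCC1, where the human genome has the host gene SNHG3. It had 70 and 61 counts with Bobcat339 and 45 and 33 in the controls. Both treated libraries were above both controls, at 4.59 ± 0.229 against 2.79 ± 0.608 CPM (SD, n = 2 each), and the log2 fold change of 0.72 (SE 0.44) had an edgeR adjusted p of 0.999. SNORA16 had 41 and 35 against 31 and 23 counts, and RF00410, described as box 2B inside KANSL2, had 48 and 38 against 34 and 32. These 2 rows were also higher in both treated libraries, with log2 fold changes of 0.46 (SE 0.50) and 0.35 (SE 0.47).

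Other H/ACA families lay on the other side. RF00412 summed to 5 and 11 counts against 26 and 20 over 7 rows, of which 6 were counted, and both treated libraries were below both controls. Its log2 fold change of -1.52 (SE 0.69) had an unadjusted p of 0.0411 and an edgeR adjusted p of 0.9995, and it was the single family of 50 tested under an unadjusted p of 0.05, where 4.01% of that table was (2.65% lower). Its row inside RPL23 had 1 and 0 against 9 and 11 counts and that inside TBRG4 3 and 6 against 4 and 7, and without the first of these the family's value was -0.79. Rows below 0 by the smallest p were RF00438 (7 and 6 against 12 and 17 counts), RF00091 inside RPSA (14 and 8 against 27 and 14), RF00319 inside STRAP (19 and 15 against 30 and 27) and a row of RF00056, ENSSSCG00000025722 (3 and 8 against 13 and 11). For RF00091 the first treated library equalled control 2 in counts. Of the 12 tested H/ACA rows, 3 had both treated libraries above both controls, 4 had them below and 5 overlapped, where 13.3% of all tested rows of the table were above and 16.0% below.

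C/D small nucleolar RNAs had 103 families, 266 rows and 1857 counts, with 449 and 490 counts against 538 and 380 (log2 fold change 0.01, SE 0.32). SNORD74 (ENSSSCG00000018229) had 59 and 35 against 68 and 37 counts (log2 fold change -0.19, SE 0.47). SNORD44 had 25 and 15 against 7 and 12 (log2 fold change 1.03, SE 0.68) and SNORD47 had 11 and 16 against 8 and 5 (1.02, SE 0.76), both above the controls in each treated library. These were the highest values above 0 among the tested rows, and each had an edgeR adjusted p of 0.999. The 3 rows lie on the same strand in a locus of 11 rows, which summed to 152 and 149 against 154 and 114 counts and overlapped between the groups.

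A locus here means at least 3 Rfam-named rows on a strand with gaps of up to 5000 bases, a grouping chosen after the values were seen. It gave 59 loci with 13.3% of the rows and 45.4% of the counts. Of the 21 loci with more than 20 counts, 3 had both treated libraries above both controls, 4 had them below and 14 overlapped. Among all tested rows the groups were apart in 29.3%, with 13.3% above and 16.0% below. Whether loci were apart more often than rows was not tested. At chr6:85593936-85596420 between TRNAU1AP and RAB42, the place of human SNHG12, the rows summed to 49 and 44 against 33 and 26 counts, both treated libraries above, and the SNORA16 row described earlier held 130 of these 152 counts. At chr2:8919787-8922250 between SLC3A2 and WDR74, the place of human SNHG1, 8 C/D rows summed to 33 and 35 against 37 and 41, both below.

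**Figure D4:**
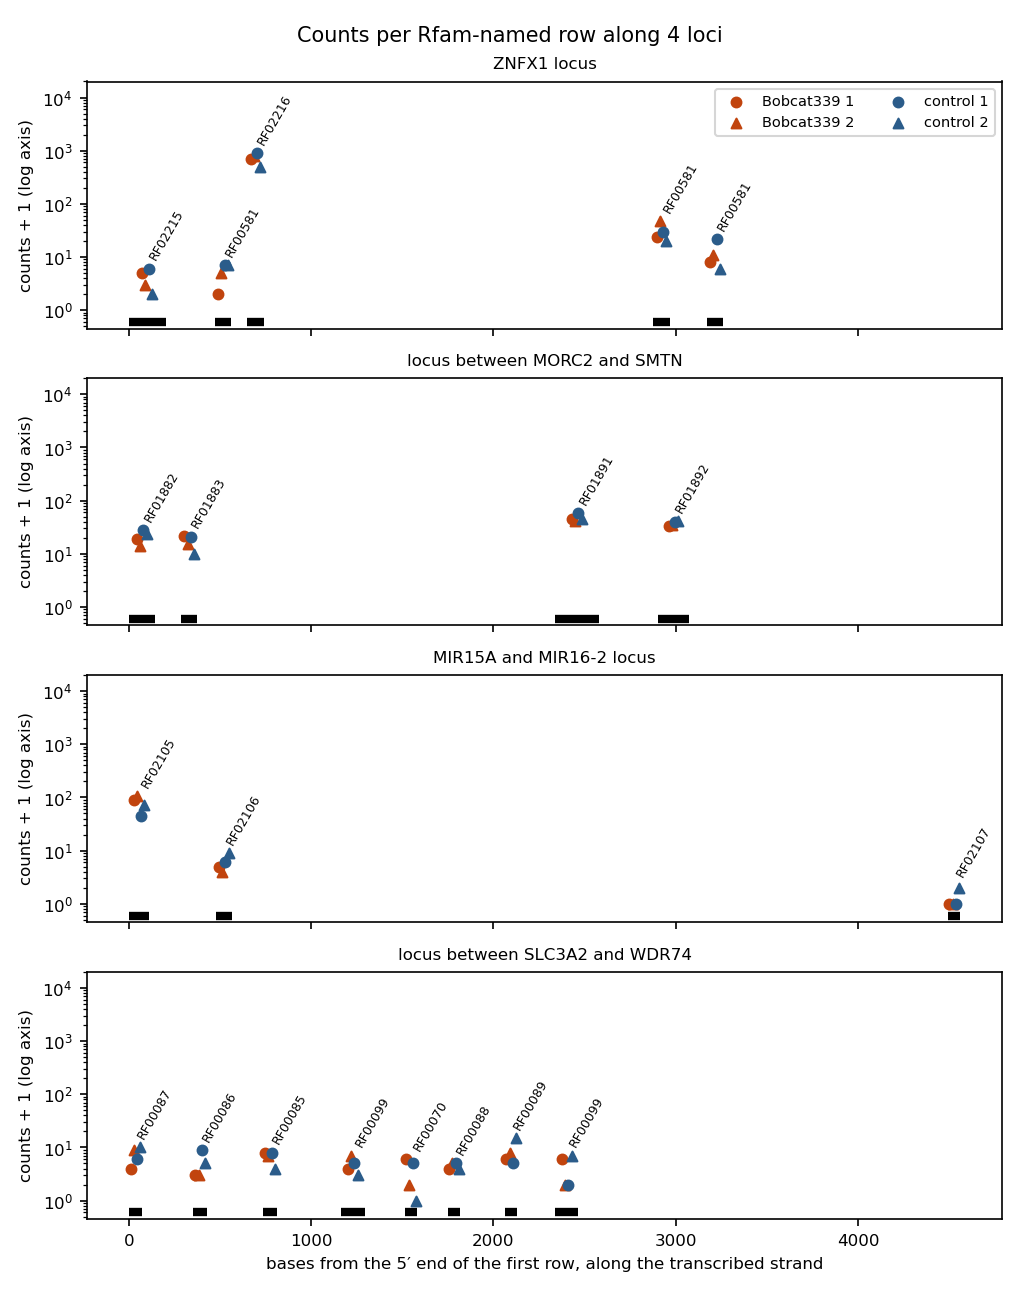
Counts + 1 (y, log axis) of each Rfam-named row in the 4 libraries along 4 loci, against distance in bases from the 5′ end of the first row on the transcribed strand (x), with black bars for the rows. In the locus beside ZNFX1, RF02216 lies above its 4 neighbours in every library, and in the MIR15A and MIR16-2 locus RF02105 holds 310 of 331 counts.

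Small nucleolar RNA clusters that are imprinted in human and mouse had few counts. SNORD115 and SNORD116 are transcribed from the paternal chromosome in those species, and SNORD113 and SNORD114 from the maternal one. The 16 rows of SNORD116 had no count. SNORD115 had counts in all of its 7 rows, 9 and 2 against 3 and 10. The family of SNORD113 and SNORD114 (RF00181) had 53 rows, of which 6 were counted with 4 and 5 against 5 and 1. Of these 15 counts 4 came from a row on chromosome 8, outside the loci of this family near RTL1 on chromosome 7. Small Cajal body RNAs, which guide modification of spliceosomal RNA, had 53 and 67 counts against 61 and 35. Their leading row, RF00231 or scaRNA 13, had 28 and 45 against 31 and 15 counts, which overlapped (log2 fold change 0.65, SE 0.56).

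The 160 families numbered RF01872 and above had 204 rows and held 37.4% of all Rfam-named counts, with 1105 and 1255 counts against 1312 and 948 (log2 fold change 0.04, SE 0.29). After RF02216 the leading row was RF02105 (ENSSSCG00000031473), 114 bases at chr11:17761434-17761547 on the minus strand. It lies near the microRNA genes MIR15A and MIR16-2, where the human genome has the noncoding gene DLEU2. It had 89 and 106 counts with Bobcat339 and 44 and 71 in the controls. Both treated libraries were above both controls, 6.87 ± 1.17 against 4.11 ± 1.36 CPM (SD, n = 2 each). Its log2 fold change of 0.74 (SE 0.41) had the smallest unadjusted p of the tested rows, 0.0892, and an edgeR adjusted p of 0.999. The value was 1.15 without control 2 and 0.44 without control 1. The neighbouring RF02106, 90 bases long, had 4 and 3 against 5 and 8 counts.

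The 4 rows at chr14:47801563-47804636 between MORC2 and SMTN, the place of the human noncoding gene TUG1, summed to 116 and 102 against 144 and 117 counts, both treated libraries below both controls in CPM. RF01891 had 44 and 41 against 58 and 44 counts (log2 fold change -0.29, SE 0.45) and RF01892 had 33 and 34 against 39 and 41 (-0.28, SE 0.48). RF01882 had 18 and 13 against 27 and 23 (-0.71, SE 0.59), whereas RF01883 had 21 and 14 against 20 and 9 (0.24, SE 0.66) and overlapped. RF02271 had 31 rows, 14 of them counted, and its leading rows lie inside CNNM2 (50 and 43 against 33 and 49 counts) and ATF2 (30 and 24 against 12 and 26). The family summed to 103 and 88 against 72 and 96 counts and overlapped (log2 fold change 0.16, SE 0.38).

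After the filter on low counts 46 of the 2308 rows were tested, and edgeR's quasi-likelihood test called 0 of them, with 0 under an unadjusted p of 0.05, where 4.00% of all tested rows were (1.36% higher and 2.64% lower). DESeq2, fitted on 792 of the rows, called 0 of them, where it called 0.0167% of all rows. It had 3 under an unadjusted p of 0.05, where 1.86% of all rows were. Of these 792 rows 417 had only 1 to 3 counts over the 4 libraries together, which leave little room for a low p. The share over all rows is therefore not a like comparison. The log2 fold changes ran from -1.24 to 1.03 with a median of 0.16, 28 above 0 and 18 below, and the median over all tested rows was -0.02. The SE of a row had a median of 0.65, against 0.39 over all tested rows; that of RF02216 (0.33) and of the leading 7SK row (0.36) lay below the median of all rows. Both treated libraries were above both controls in 8 rows and below in 9, 37.0% together, beside 13.3% above, 16.0% below and 29.3% together over all tested rows. Summed by family, 0 of 50 families were called, and the values ran from -1.52 to 1.03. The groups were apart in 18 families (36.0%), beside 29.3% of all tested rows of the table with family sums. Summed by class, 0 of 12 classes were called, 0 of them under an unadjusted p of 0.05, and the values ran from -0.52 to 0.48. The groups were apart in 16.7% of the classes, beside 29.3% of all tested rows.

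**Figure D5:**
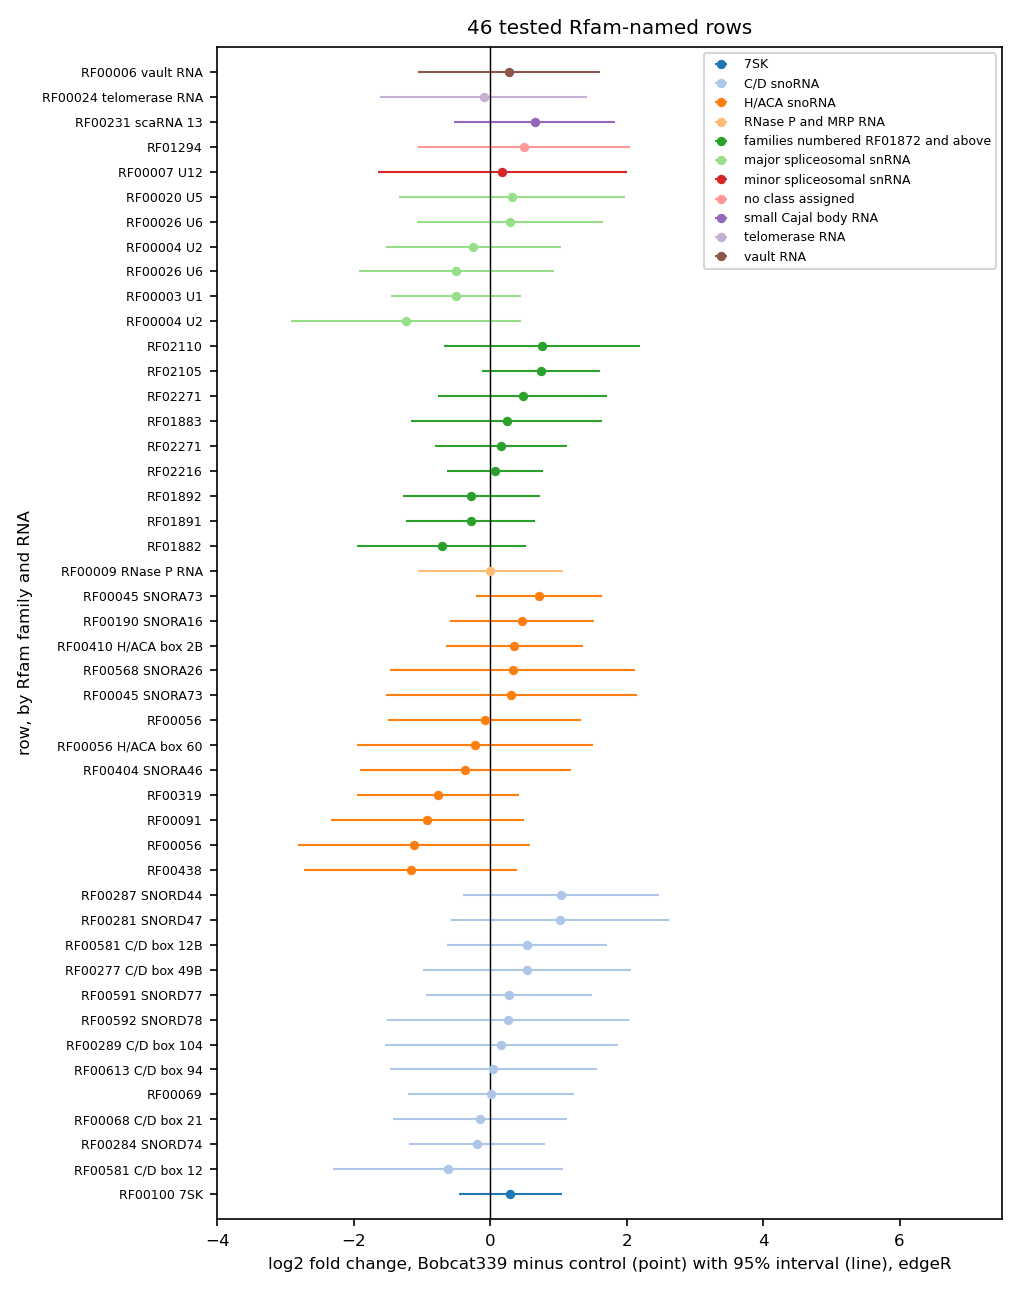
Log2 fold change, Bobcat339 minus control (points), with its 95% interval from edgeR (lines) for the 46 tested Rfam-named rows, coloured by RNA class. Every interval includes 0, and the points run from -1.24 for a U2 row to 1.03 for SNORD44.

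Over all classes together, the place of a row went with its chance of a count. Of the 1290 rows that overlap no other row of the table, 28.8% had a count. It was 46.1% of the 622 inside another row on the same strand and 35.4% of the 370 inside a row on the opposite strand only. The 1290 rows held 8918 of the 12338 counts and can lie inside RefSeq genes, as the leading U1 row does. The major spliceosomal class made up 630 of them. Among families numbered RF01872 and above, 71 of 137 rows without another row were counted, beside 27 of 51 inside a same-strand row. Among H/ACA rows it was 37 of 110 beside 68 of 126, and among C/D rows 59 of 140 beside 61 of 112. Place apart from class was not tested. Rows inside a same-strand gene were counted more often where that gene had more counts: 21.0% of 100 rows where the gene had under 100 counts in all, 37.0% of 135 from there to under 1000, 55.4% of 298 from there to under 10000 and 57.3% of 89 above. The reads of a row and of the gene around it cannot be told apart in these counts. Of 11 tested rows inside a tested gene, 6 had a log2 fold change of the same sign as the gene. STRAP had -0.12 (SE 0.29) beside -0.77 for its H/ACA row RF00319, and ATF2 had 0.39 (SE 0.32) beside 0.48 for its row RF02271. RPSA had 0.15 (SE 0.28) beside -0.92 for its row RF00091, and KANSL2 had -0.13 (SE 0.28) beside 0.35 for its row RF00410.

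Proteins listed for making, binding or processing small RNAs were read from the same fit. The list included 5 proteins of the microRNA pathway, although no microRNA class was formed among the Rfam-named rows. Of 111 proteins listed in 11 groups, 102 were found in the table and 101 tested. The edgeR test called 0, with 3 (2.97%) under an unadjusted p of 0.05, where 4.00% of all tested rows were, and 79 were below 0 and 22 above, with a median of -0.15. Over all tested rows 9781 of 18481 were below 0. Both treated libraries were below both controls in 22.8% of the proteins (23) and above in 2.97% (3), beside 16.0% and 13.3% of all tested rows. Other values below 0 rested on a single high control. Examples, chosen after the values were seen, were POP4 with control 1 (586 and 446 against 894 and 383 counts) and INTS14 with control 2 (1087 and 1075 against 989 and 1686). The most abundant member of each group had values from -0.58 for MVP, the major vault protein, to 0.25 for SSB, the La protein that binds the 3′ ends of polymerase III transcripts. Those of the small nucleolar ribonucleoproteins were SNU13, at -0.06 (SE 0.26), and DKC1, the pseudouridine synthase of H/ACA particles, at -0.14 (SE 0.30), each with an edgeR adjusted p of 0.999.

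The 3 under an unadjusted p of 0.05, named after their values were seen, were INTS5 (-0.96, SE 0.32) and INTS11 (-0.84, SE 0.34), subunits of the Integrator complex, which cleaves the 3′ ends of U RNAs, and LSM5 (-1.13, SE 0.38), a part of the ring that binds U6. Their edgeR adjusted p was 0.999. Of the 12 tested Integrator subunits 9 were below 0 and 3 above, among them INTS6 (0.55, SE 0.33), with both treated libraries above both controls. In the ring that binds U6, LSM6 (0.21, SE 0.32) and LSM8 (0.17, SE 0.30) were above 0, and LSM2, LSM3, LSM4 and LSM7 below. Without control 1, where 2.92% of all rows were called, the test called INTS5 (-1.17) and SNAPC3 (0.86), and without control 2, where 2.47% were, it called LSM5 (-1.53), INTS11 (-1.05), SRP54 (-0.93), RUVBL2 (-0.86) and POP7 (-0.78).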

How the data were processed

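The authors deposited whole-number read counts per row for each of the 4 libraries, FPKM values per row and library, and a length per row, per the file headers. The deposited FPKM of the Rfam-named rows equal the count per length and library total. Tools listed in the submitters' processing notes are HISAT2 2.0.5, Trimmomatic, DESeq2 1.16.1 and HTSeq, with no role given, and the build there is Sscrofa10.2. The coordinates follow Sscrofa11.1: 98.8% of 15041 symbols compared overlap the RefSeq gene of that name. How the counting treated strand, overlapping rows and reads that fit several copies is not given in the sources used, so copies of one RNA may share reads. Families were summed for that reason.

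Samples were grouped by their titles. The members, lists and RNA classes were chosen with earlier results of these data known. Classes came from the table's descriptions for 150 families and from the known identity of 52 families, and no class was assigned to 39. The 160 families numbered RF01872 and above were put in a single class by number alone, not by what the RNA does. Whole-table fits were made in R 4.3.3 by edgeR 4.0.16 (TMM, filterByExpr at minimum count 10, glmQLFit, glmQLFTest, Benjamini-Hochberg at 0.05), repeated with family sums and class sums in place of the rows. CPM are TMM-scaled, except the limits for a count of 0. The alternatives were a filter of at least 5 CPM in 2 libraries or none, size factors of DESeq2 1.42.0 or library totals alone, its Wald test, a replicate block and each library left out. The fits were tested on simulated counts. Rows were named by rule: the 12 with the highest mean and the 5 with the smallest p in each direction. Families were named the same way, with the 5 of most rows, and for proteins the most abundant of each group. Other rows described belong to the same locus, family or class, and the position of 1 locus is not reported here. Neither pair of libraries was a repeat deposit: the chi-square per row was 8.88 for Bobcat339 and 31.7 for control, and 1.70 and 1.75 over Rfam-named rows.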

Additional observations from a re-analysis of the deposited data

How the results depend on the processing

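No Rfam-named row, family or class was called under any alternative run. Over the whole table the count of 0 called rows became 5 with DESeq2, 44 with the replicate number as a block (replicate block), and 0 to 586 with a library left out. The labels do not say that the numbers pair the libraries, and the difference between libraries 1 and 2 correlated at 0.159 between the groups. Among the partner proteins the count of 0 became 0 to 5 with a library left out. With a library left out the lone one is assumed to vary like the other group. Of 41 named values, 28 kept their sign over all alternatives. Many of the 41 were named for a small p in these same data, which favours a steady sign, and a family of a single row repeats its row. The values that changed sign were all named for their mean or their number of rows, so the share that kept it does not measure stability. Changes of sign came mostly from single libraries. With each library left out in turn, the range was -0.28 to 0.57 for the row of RF02216 and its family, -0.24 to 0.73 for the 7SK row, -0.27 to 0.65 for the 7SK family, -0.86 to 0.0234 for the leading U1 row and -0.91 to 0.0833 for the U1 family RF00003. It was -0.57 to 0.31 for SNORD74 as a row and as family RF00284, -0.10 to 0.50 for the RF02271 row in CNNM2, -0.0330 to 0.41 for its family, -0.16 to 0.22 for RNase P RNA, -0.29 to 0.25 for RF00056 and -0.46 to 0.59 for RF00581. The RF00056 family (-0.02) was at 0.00582 with DESeq2, 0.00212 with its size factors, 0.0112 without scaling, 0.00559 without the filter and 0.0111 without its leading row. Without its leading row the 7SK family was at -0.39 and RF00581 at -0.80. The cause was not tested. At this depth 46 of the 2308 rows passed the filter on low counts.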
